A study of Arabidopsis with 2 samples.

Results

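Cytochromes P450 are heme-containing monooxygenases of the endoplasmic reticulum and plastids, and plants use them to make and inactivate hormones, pigments, lignin precursors, surface lipids and defence compounds. KLU (AT1G13710) encodes CYP78A5, a P450 that promotes organ growth, slows the initiation of new organs at the shoot meristem and acts beyond the cells that express it. Most plant P450s draw electrons from NADPH-cytochrome P450 reductases, and members of one subfamily often lie side by side in the Arabidopsis genome.

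The array probes examined here were all those whose description in the scanner files names a cytochrome P450 and not a reductase, with control spots left out. They numbered 235 of the 21500 gene probes, 1 per gene, and all 235 had a counterpart among the RefSeq genes of TAIR10.1. A CYP name was given there to 228 of them, in 64 subfamilies. Some P450 genes carry another description on the array, among them DWF4, ROT3, C4H, FAH1, TT7, AOS and CYP51G1. These were not members and appear below only beside the pathway they belong to.

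The RNA came from torpedo stage embryos of the cuc1 cuc2 double mutant, excised from cuc1-1 cuc2-1/+ parents, and of the wild type Ler. CUC1 and CUC2 are NAC transcription factors that specify the boundary between the cotyledons, and the comparison asked which transcripts depend on them. About 100 embryos were pooled for each genotype, dissected in 6% glucose and fixed, their RNA was amplified linearly, and the labelled cRNA of both genotypes competed on each array. The same pair of extracts was hybridized 2 times, with cuc1 cuc2 in Cy5 and Ler in Cy3 in experiment 1 and the dyes exchanged in experiment 2. Each genotype is therefore 1 biological sample, and the spread between experiments is technical. In such pooled embryos, fewer cells that express a gene and less of its RNA per cell cannot be told apart. Array and dye orientation cannot be told apart either.

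A log2 ratio below gives cuc1 cuc2 over Ler, so a negative one is a lower signal in the mutant. Its error and its scanner p come from the error model of the scanning software for single spots and hold no biological variation. The error of a mean over both experiments combines the 2 spot errors. A gene was called when its scanner p was under 0.01 in both experiments with the same sign. Of the mutated genes, CUC2 had log2 ratios of -0.62 and -0.999 and CUC1 had 0.02 and -0.11, but the position of their probes relative to the mutations was not given in the sources used here, so these values do not check the genotypes. The embryo regulators LEC1, LEC2, FUS3 and ABI3 and the oil body gene OLEO1, 5 of 5 markers with a probe, were well above background in both genotypes on both arrays. OLEO1 itself had log2 ratios of 0.55 (error 0.19) and 0.64 (error 0.18), whereas the means of the other 4 lay between -0.12 and 0.06, and the part of this shift in the P450 values was not tested.

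KLU was the P450 gene with a large difference between the genotypes. After dye normalization its spot gave a signal of 512 in cuc1 cuc2, against 5613 in Ler in experiment 1, and 449 in cuc1 cuc2, against 6035 in Ler in experiment 2. Both mutant values lay more than an order of magnitude below both wild-type values. The 2 values of a genotype are hybridizations of 1 extract, so this separation holds no biological variation. The mutant signal was 9.12% of that of Ler in experiment 1 and 7.44% in experiment 2. The log2 ratios were -3.45 (error 0.31) and -3.75 (error 0.33), with a mean of -3.60 (error 0.23). The scanner p of the spot was 3.2e-28 in experiment 1 and 3.4e-30 in experiment 2. The ratio was of like size with the mutant cRNA in either dye.

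The KLU probe still gave a signal above background in cuc1 cuc2 embryos. Before dye normalization and background subtraction its spot had a brightness of 173 in the mutant channel over a local background of 66, against 856 in the Ler channel over 74, in experiment 1. In experiment 2 the brightness was 196 in the mutant channel over 72, against 1046 in the Ler channel over 67. The scanning software marked the spot as well above background in all 4 channels, that is, clearly brighter than the local background. The mutant spots were within 3 times their local background, and the size of the ratio depended on how that background was handled. With the background left in place the mean log2 ratio was -2.41, and with the 3 other alternatives, normexp correction with loess or median centring and plain subtraction, it lay between -2.99 and -2.85. These correspond to signals 5.31-fold to 7.94-fold lower in cuc1 cuc2, against 12.1-fold in the deposited values.

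KLU was also the single P450 gene that met the rule for calls. The rule called 0.242% of all gene probes lower in cuc1 cuc2, and 1 of the 235 P450 probes, or 0.426%. It called 0.502% of all gene probes higher and 0.0512% with opposite signs in the 2 experiments, and 0 of the P450 probes in either way. With 235 probes, these shares differ from the background by single genes. Within a single array, a scanner p under 0.01 was found for 1 P450 probe, KLU, in each experiment, beside 1.56% and 1.55% of all gene probes. A limit of 0.05 in 1 array or the other added CYP98A3, with a scanner p of 0.0122 in experiment 1, and CYP705A23, with 0.0493 in experiment 2. The ratios of CYP705A23 had opposite signs, at -2.09 and 1.80, on a dim spot.

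**Figure D1:**
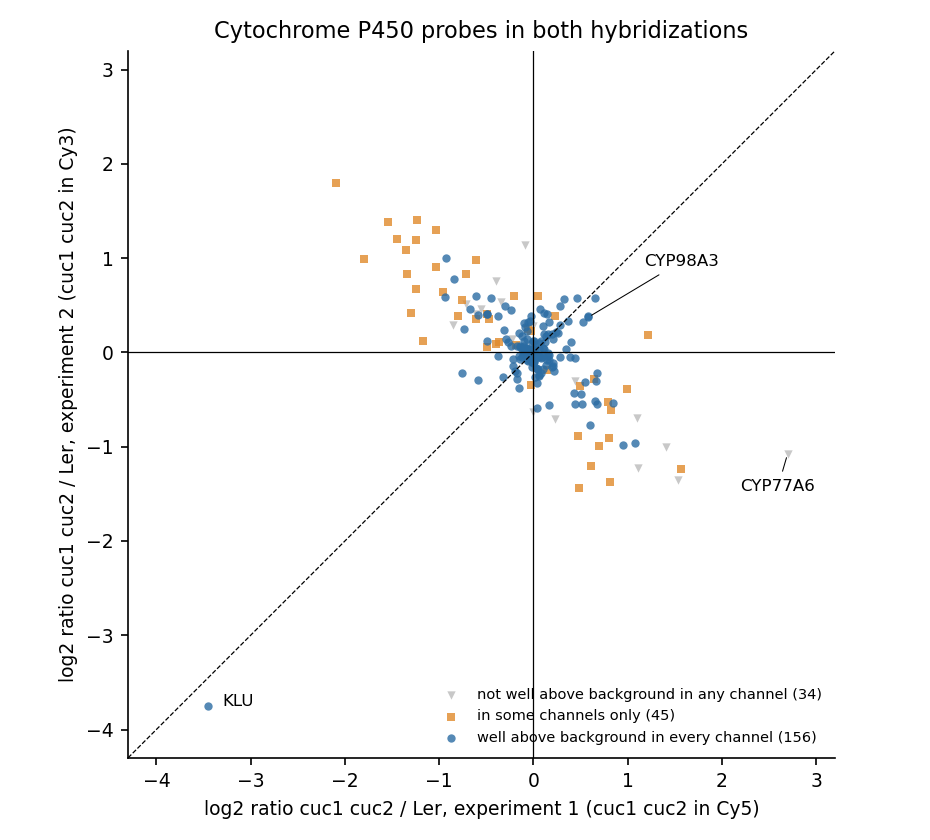
Each point is a cytochrome P450 probe, placed by its log2 ratio of cuc1 cuc2 over Ler in experiment 1 (x axis) and in experiment 2 (y axis, dyes exchanged), with symbols for probes well above background in every channel (156), in some only (45) and in none (34). KLU lies alone at -3.45 and -3.75, the bright probes gather around 0, and the dim probes spread from upper left to lower right, where the ratio changes sign with the dyes. The dashed line marks equal ratios.

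The other P450 probes centred on no difference. The median of the mean log2 ratios was -0.000635 over the 235 probes, beside -0.000593 over all gene probes, and the quartiles were -0.07 and 0.09. A total of 156 P450 probes, or 66.4%, were well above background in every channel, a share below the 84.2% of all gene probes, and 34, or 14.5%, were above it in no channel, beside 7.84%. P450 probes were also dimmer, with median brightness in experiment 1 of 107 for cuc1 cuc2 and 165 for Ler, beside 225 for cuc1 cuc2 and 244 for Ler over all gene probes. In experiment 2 it was 164 for cuc1 cuc2 and 103 for Ler, beside 242 for cuc1 cuc2 and 202 for Ler over all gene probes. The brighter channel was Cy3 in both experiments, so the order of the genotypes turned with the dyes. The 155 bright probes other than KLU had mean log2 ratios between -0.49 and 0.62, and 137 of them (88.4%) lay within 0.25 of 0. That share was not counted over all bright gene probes. The quartiles were -0.06 and 0.09 for the 155, beside -0.08 and 0.08 for all bright gene probes.

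The repeat with exchanged dyes set the precision of these values. Among the 155 bright probes without KLU, 90 had opposite signs in the 2 experiments, a share not counted over all bright gene probes. For the 155 the median difference between experiments was 0.20 and the median error of the mean was 0.29. Over all bright gene probes these were 0.14 and 0.14. The value of 0.29 is 1 error of the spot model and no detection limit, and the rule for calls needs larger differences. The bright CYP83B1, for example, had a mean of -0.44 (error 0.27) and scanner p of 0.20 and 0.32. Moderate changes in a typical P450 probe could therefore go uncalled. The 45 probes above background in some channels only had a median ratio of -0.40 in experiment 1 and 0.36 in experiment 2, so their ratios mostly followed the dye. Their median difference between experiments was 1.38. The software set the ratio of 17 of the 235 P450 probes to exactly 0 in at least 1 experiment. Over the 234 probes other than KLU the correlation between experiments was -0.75 (Pearson, across genes of the same extracts, which are no independent replicates), and without turning the ratios for the dyes, as red over green, it was 0.75. It was -0.47 over the 155 bright probes without KLU, beside -0.44 over all gene probes and -0.02 over all bright ones. Under the plain requirement of one sign in both experiments, 35 P450 probes (14.9%) were negative and 37 (15.7%) positive, beside 22.9% and 23.1% of all gene probes. Of these P450 probes, 33 negative and 33 positive ones were among the 156 bright P450 probes. The same split was not counted over all bright gene probes. Bright probes made up 66.4% of the P450 probes and 84.2% of all gene probes, and the part of this in the lower shares was not tested.

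The CYP78A subfamily, to which KLU belongs, includes several promoters of organ and seed growth, and 5 of its 6 probes were well above background in every channel. KLU was the 1 gene of the 6 that was called. CYP78A7 (AT5G09970), which acts redundantly with KLU, gave signals of 4290 in cuc1 cuc2, against 4589 in Ler in experiment 1, and of 3992 in cuc1 cuc2, against 4043 in Ler in experiment 2. Its log2 ratios of -0.10 and -0.02, with a mean of -0.06 (error 0.12), lay within the error. The values of the 2 genotypes overlapped.

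The remaining CYP78A genes had weaker signals and wider errors. CYP78A9 (AT3G61880), which can enlarge fruits and seeds when overexpressed, had signals of 196 in cuc1 cuc2, against 216 in Ler, then 191 in cuc1 cuc2, against 183 in Ler, with a mean log2 ratio of -0.03 (error 0.47). CYP78A6 (AT2G46660), a promoter of seed growth, had 183 in cuc1 cuc2, against 178 in Ler, then 135 in cuc1 cuc2, against 202 in Ler, with a mean of -0.27 (error 0.53). CYP78A10 (AT1G74110) had 233 in cuc1 cuc2, against 272 in Ler, then 211 in cuc1 cuc2, against 233 in Ler, with a mean of -0.18 (error 0.40). For these 3 genes the error left room for a change in either direction. The signs of CYP78A6 and CYP78A9 differed between the experiments. CYP78A8 (AT1G01190) had dim spots in all 4 channels, and its ratios of 1.41 and -1.002 changed sign with the dye.

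**Figure D2:**
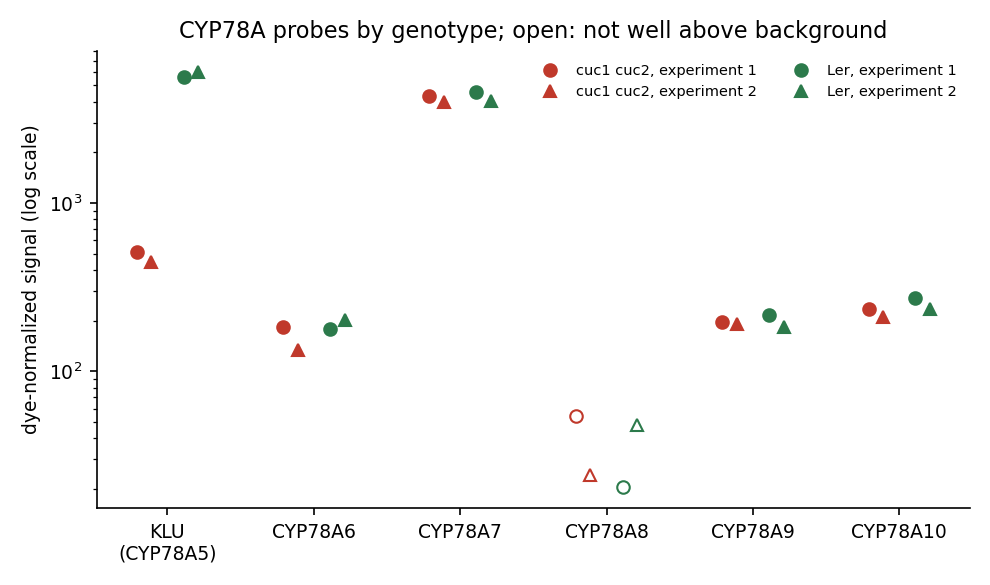
Dye-normalized signals (log axis, arbitrary scanner units) of the 6 CYP78A probes in cuc1 cuc2 (left of each pair) and Ler (right), with 1 point per hybridization. KLU drops to 512 and 449 in cuc1 cuc2, against 5613 and 6035 in Ler, whereas CYP78A7 lies between 3992 and 4589 in both genotypes and the other 4 genes have signals of at most 272 in both, with open symbols for CYP78A8, which was not well above background.

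P450s of the hormone pathways showed no call in either direction. The rule called 0.242% of all gene probes lower and 0.502% higher, so a short list is expected to hold no call. The same limit applies to each pathway list below. Gibberellin synthesis passes through GA3, the ent-kaurene oxidase, and through the kaurenoic acid oxidases CYP88A3 and KAO2. GA3 (AT5G25900) had signals of 11682 in cuc1 cuc2, against 10652 in Ler, then 12245 in cuc1 cuc2, against 10873 in Ler, which gave a mean log2 ratio of 0.15 (error 0.12). CYP88A3 had log2 ratios of 0.40 and 0.11, with a mean of 0.25 (error 0.16), and KAO2 a mean of -0.04 (error 0.17). CYP714A1 and CYP714A2, which inactivate gibberellins, had means of 0.06 and 0.19. Of these 5 genes 3 were positive in both experiments and 0 negative, beside 23.1% and 22.9% of all gene probes. Their median was 0.15, and the count of positive genes was 2 with normexp and median centring. With 5 genes, such counts differ from the background by single genes. The scanner p of each gene was above 0.05 in both experiments.

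Brassinosteroid P450s were all bright enough to be measured, and 8 of 8 were not called. DWF4, the C-22 hydroxylase of the pathway, had a mean log2 ratio of 0.08 (error 0.12) and CPD, which acts in the same pathway, one of 0.05 (error 0.13). The last synthesis steps are carried out by BR6OX1 and BR6OX2, at 0.07 (error 0.27) and 0.27 (error 0.32). BAS1 and CYP72C1, which lower active brassinosteroids, had means of -0.04 (error 0.12) and -0.06 (error 0.14), and ROT3 had -0.27 (error 0.33). The list held 3 genes negative and 3 positive in both experiments, beside 22.9% and 23.1% of all gene probes, with a median of 0.01. Of the 6 enzymes of the pathway that are not P450s, 0 were called, and DWF1, a sterol reductase, had the highest mean at 0.28 (error 0.12).

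Among the other hormone P450s, the abscisic acid 8'-hydroxylases CYP707A1, CYP707A2, CYP707A3 and CYP707A4 had mean log2 ratios of -0.04, -0.07, 0.24 and -0.20, with errors between 0.17 and 0.65. CYP735A1 and CYP735A2, the cytokinin trans-hydroxylases, had means of 0.01 (error 0.66) and 0.03 (error 0.73), and in both genes the sign changed with the dye. CYP711A1 (MAX1), of strigolactone synthesis, had signals of 160 in cuc1 cuc2, against 69 in Ler, then 133 in cuc1 cuc2, against 117 in Ler. Its mean of 0.70 had an error of 0.82 and its probe was dim in at least 1 channel. In the oxylipin and jasmonate list, AOS, the first committed enzyme of jasmonate synthesis, had a mean of 0.02 (error 0.13), and CYP94B1, CYP94B3 and CYP94C1, which oxidize jasmonoyl-isoleucine, had -0.05, 0.02 and -0.02 with errors of 0.12 to 0.13.

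**Figure D3:**
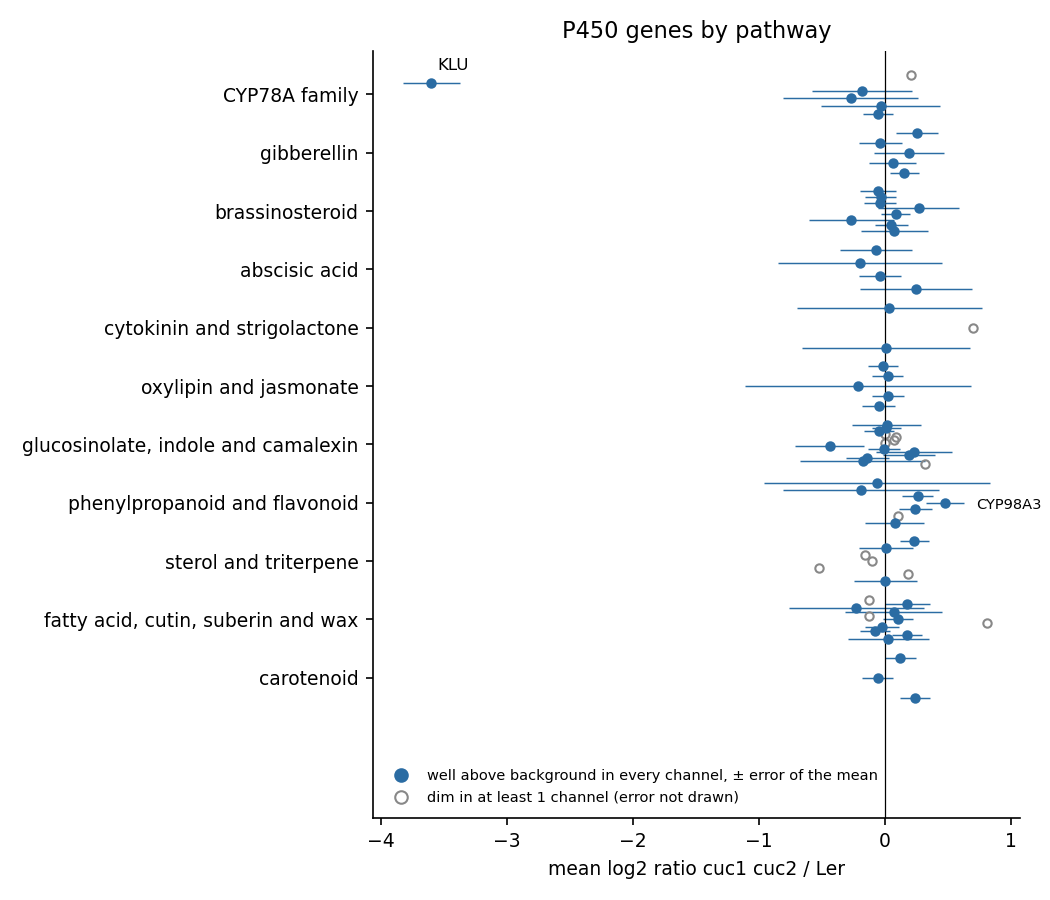
Each point is a probe of the P450 pathway lists (rows), placed by its mean log2 ratio in cuc1 cuc2 relative to Ler (x axis). Filled points with bars for the error of the mean are well above background in every channel, and open points are dim in at least 1. Every list is centred near 0, with medians from -0.12 (CYP78A) to 0.15 (gibberellin), and KLU at -3.60 stands apart from the rest.

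In the phenylpropanoid pathway, which supplies lignin and flavonoid precursors, 5 of 7 genes had a positive mean and 2 a negative one, and 0 were called. CYP98A3 (AT2G40890), the 3'-hydroxylase of the pathway, gave signals of 1169 in cuc1 cuc2, against 783 in Ler in experiment 1 and of 1183 in cuc1 cuc2, against 914 in Ler in experiment 2. Both mutant values were above both wild-type values, but the 2 values of a genotype came from 1 extract. The share of all gene probes with this order was not counted. Its log2 ratios were 0.58 and 0.37, with a mean of 0.48 (error 0.15) and scanner p of 0.0122 and 0.0532. It missed the rule in both experiments, and its mean was 0.27 to 0.38 under the 4 other treatments of background and dye.

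C4H and FAH1, the cinnamate and ferulate hydroxylases that act before and after CYP98A3, showed the same sign with smaller values. C4H had signals of 2393 in cuc1 cuc2, against 1813 in Ler, then 2596 in cuc1 cuc2, against 2392 in Ler, with log2 ratios of 0.40 and 0.12 and a mean of 0.26 (error 0.12). FAH1 had 1548 in cuc1 cuc2, against 1452 in Ler, then 1852 in cuc1 cuc2, against 1420 in Ler, with ratios of 0.09 and 0.38 and a mean of 0.24 (error 0.13). For each of them 1 of the 2 experiments lay near 0. The scanner p of C4H was 0.0271 in experiment 1 and 0.48 in experiment 2, and that of FAH1 was 0.63 and 0.0306. The mean of C4H, which is not a member, lay beyond 2 errors. TT7, the flavonoid 3'-hydroxylase, had a mean of 0.08 (error 0.24). CYP98A8 and CYP98A9, paralogs of CYP98A3, had means of -0.06 (error 0.90) and -0.19 (error 0.62), and the dim CYP84A4 had 0.10 (error 1.10). The list had 4 genes positive and 0 negative in both experiments, beside 23.1% and 22.9% of all gene probes. Its median was 0.10, and with normexp and median centring the count of positive genes was 2.

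Of the 14 glucosinolate, indole and camalexin P450s, 0 were called and 9 had bright spots throughout. CYP83A1, CYP71A12, CYP71A13, PAD3 and CYP81F2 were dim in at least 1 channel. CYP79F1, of aliphatic glucosinolate synthesis, was bright, with signals of 9620 in cuc1 cuc2, against 9130 in Ler, then 5506 in cuc1 cuc2, against 5722 in Ler, and had a mean log2 ratio of 0.01 (error 0.12). CYP79B2 and CYP79B3, which turn tryptophan into indole-3-acetaldoxime, had means of -0.14 (error 0.17) and -0.05 (error 0.12). CYP83B1 (AT4G31500), which takes indole-3-acetaldoxime towards indole glucosinolates, had signals of 287 in cuc1 cuc2, against 433 in Ler, then 381 in cuc1 cuc2, against 466 in Ler. Its log2 ratios were -0.59 and -0.29, with a mean of -0.44 (error 0.27), and its scanner p of 0.20 and 0.32 did not pass the limit. Under the other treatments the mean of CYP83B1 lay between -0.25 and -0.14.

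Surface lipid and fatty acid P450s were measured with very different precision, with errors of the mean from 0.12 to 2.22. The omega-hydroxylases CYP86A2, CYP86A4, CYP86A8 and CYP86B1, of cutin and suberin synthesis, had mean log2 ratios of -0.02, 0.18, 0.10 and 0.18 with errors of 0.12 to 0.18. CYP77A4, a fatty acid epoxidase, had signals of 2550 in cuc1 cuc2, against 2766 in Ler, then 2798 in cuc1 cuc2, against 2887 in Ler, with a mean of -0.08 (error 0.12). CYP96A15, the midchain alkane hydroxylase of stem wax, had a mean of -0.23 (error 0.54). CYP703A2 and CYP704B1, known from pollen wall synthesis, and CYP77A6, known from flower cutin, were dim in at least 1 channel. Of the 11 genes, 2 were negative and 3 positive in both experiments, beside 22.9% and 23.1% of all gene probes, and 0 were called.

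The carotenoid and sterol P450s held some of the best measured genes. CYP97A3 and LUT1, the ring hydroxylases of lutein synthesis, had mean log2 ratios of 0.12 and -0.06 with errors of 0.12 each, and CYP97B3, of the same family, had 0.24 (error 0.12) from ratios of 0.26 and 0.21. CYP51G1, the sterol 14-alpha demethylase, had signals of 18094 in cuc1 cuc2, against 15224 in Ler, then 17521 in cuc1 cuc2, against 15125 in Ler, with a mean of 0.23 (error 0.12). Its scanner p was 0.13 and 0.20. The sterol desaturases CYP710A1 and CYP710A2 and the triterpene genes CYP716A1 and CYP705A5 were dim in at least 1 channel.

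The genes that serve P450s as electron donors differed little. Of 8 probes for redox partners, 0 were called. In both experiments 3 were negative and 0 positive, beside 22.9% and 23.1% of all gene probes. The mean was positive for 1 of the 8, and for 3 with normexp and median centring. Their means ran from -0.16 to 0.02, with a median of -0.05. The reductases ATR1 and ATR2 had mean log2 ratios of -0.01 (error 0.12) and -0.16 (error 0.14), and cytochrome b5 CB5-D had -0.16 (error 0.12). Of the organ growth genes outside the P450s, DA1, UBP15, ANT, AN3 and AT4G36860 had means of -0.04, -0.03, -0.13, 0.07 and 0.13, and 0 of 5 were called.

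KLU was also far from the next values in rank, taken over members with one sign in both experiments and spots well above background in the brighter genotype on both arrays. The 9 next lowest means ran from -0.49 for CYP76G1 (error 0.55) and -0.44 for CYP83B1 through -0.29 for CYP71B5 (error 0.16) to -0.19 for CYP708A1. Only 2 of the 9, CYP83B1 and CYP71B5, exceeded their own error, and the smallest scanner p among them was 0.178. The 10 highest ran from 0.29 to 0.70, and 7 exceeded their own error. They were CYP711A1, CYP71B28 at 0.62 (error 0.38), CYP71B34, CYP89A2, CYP98A3, CYP72A15 at 0.44 (error 0.25), CYP72A9, CYP705A19, CYP81D4 at 0.35 (error 0.19) and CYP96A12. All 19 kept their sign under the 4 other treatments of background and dye, but most were smaller there. These treatments reprocess the same spots of the same arrays, and the genes were picked for one sign in both experiments. The kept signs are therefore no added support. CYP711A1 was between 0.10 and 0.21, CYP71B28 between 0.19 and 0.34, CYP89A2 between 0.05 and 0.13 and CYP76G1 between -0.21 and -0.08, while CYP96A12 stayed between 0.22 and 0.27.

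CYP96A12 (AT4G39510), of a subfamily that holds wax hydroxylases, had the smallest error among the 10 highest means. Its signals were 2281 in cuc1 cuc2, against 1873 in Ler in experiment 1, and 2587 in cuc1 cuc2, against 2110 in Ler in experiment 2. The log2 ratios of 0.28 and 0.29 gave a mean of 0.29 (error 0.12), with scanner p above 0.05 in both experiments. With a mean beyond 2 errors and one sign in both experiments as the criterion, which was chosen after the values were seen, KLU was the 1 member on the lower side, beside 2.18% of all gene probes. CYP98A3 and CYP96A12 were the 2 members (0.851%) on the higher side, beside 3.79% of all gene probes.

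The large subfamilies did not move as groups. CYP71B, with 34 probes, had means from -0.29 to 0.62 and a median of 0.00, and CYP705A, with 23 probes, had a median of 0.03. The subfamilies differed in how many members could be measured. In CYP705A 19 of 23 probes (82.6%) were well above background in every channel, in CYP71A 5 of 14 (35.7%), in CYP86A 5 of 5, in CYP76C 3 of 8 and in CYP82C 0 of 3.

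**Figure D4:**
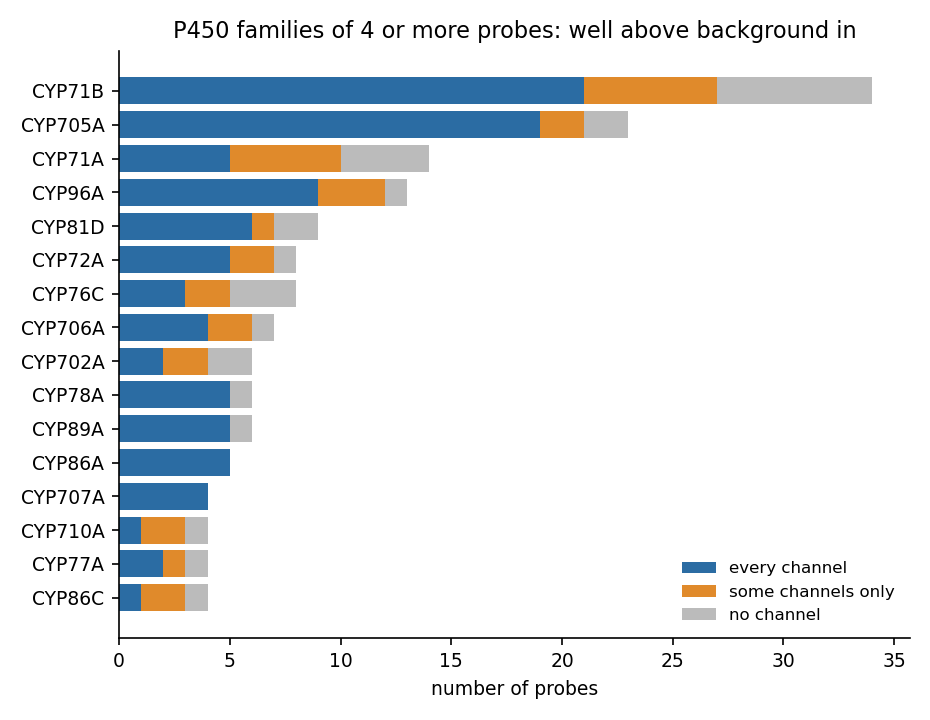
Number of probes (x axis) in each P450 subfamily of at least 4 probes (rows), with the bar split into probes well above background in every channel, in some channels only and in none. CYP705A has 19 of 23 probes in the first class and CYP71A 5 of 14.

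The position of the P450 genes gave no group of neighbours around KLU. By the gene order of TAIR10.1, 140 of the 232 placed members lay in 39 clusters of at least 2 members no more than 4 genes apart. The 15 clusters of at least 4 members, with 89 genes, had medians between -0.09 and 0.11. KLU was in none of them, with 0 other members within 20 genes on either side. The cluster from CYP81H1 to CYP91A2 on chromosome 4 had the highest median of the 15, at 0.11, and 7 of its 9 genes had a positive mean. Only 2 of the 9 were positive in both experiments and 0 negative, beside 23.1% and 22.9% of all gene probes. The cluster from CYP72A7 to CYP72A15 on chromosome 3, which lies 50 genes from CUC1, had means from -0.20 to 0.44 over its 8 genes and a median of 0.10. In both experiments 3 of the 8 were positive and 1 negative, beside the same shares, and 5 had bright spots throughout. Any part of the distance to CUC1 in these values was not tested. Probes of close relatives within a cluster may bind transcripts of each other, which was not tested.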

How the data were processed

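The authors deposited Agilent Feature Extraction output of 2 two-colour hybridizations on arrays of 22575 spots, with background-subtracted, dye-normalized intensity per channel, the log10 ratio of red over green, its error and a p-value per spot. The deposited series table held the same log10 ratios. Genome build and probe sequences were not given in the sources used here.

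Each ratio was converted to a log2 value, signed by the dyes in the labels so that cuc1 cuc2 is on top, and averaged over both experiments (experiment 1 has cuc1 cuc2 in Cy5). No test across biological samples was possible. Calls followed the rule in the study's methods and its mirror. Members and gene lists were chosen with earlier results of these data known. Named genes were KLU, the CYP78A genes, called members, the 10 lowest and 10 highest members of one sign and bright in the brighter genotype, and the pathway lists. In limma 3.58.1 (R 4.3.3), the alternatives were normexp (offset 50) with loess or with median centring, no background correction with loess, and plain subtraction with loess. Other p limits, a size limit of 0.5 and wider membership were also tried. The calling and averaging steps were tested on simulated data in Python 3.11.15.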

Additional observations from a re-analysis of the deposited data

How the results depend on the processing

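KLU was lower in cuc1 cuc2 in each setting, but its mean log2 ratio of -3.60 became -2.86 with normexp and loess, -2.85 with normexp and median centring, -2.41 with no background correction and -2.99 with plain subtraction. In the single experiments it ranged from -3.75 to -3.45. The count of P450 members called lower was 1 in every setting, including the limit of 2 errors added after seeing the data. The count called higher was 0, against 2 (CYP98A3 and CYP96A12) with that added limit and 1 (CYP71B28, beside 0.712% of all gene probes) with deposited ratios beyond 0.5 in both experiments. With normexp and median centring, 18 members were negative and 15 positive in both experiments, in place of 35 and 37. The other CYP78A genes and the lowest and highest ranked members, 24 genes in all, gave 144 values. Of these, 139 moved by less than the gene's own error of the mean and 5 moved by more. The remaining pathway genes were not in this count. The 139 include 4 that changed sign, in CYP78A8, CYP78A6 and CYP78A9, whose errors exceed their means. With errors this wide, the count of 139 is no measure of stability. The cause was not tested. No paired analysis was possible because each genotype is 1 extract. Dim probes limit what can be seen: 34 members were well above background in no channel.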
